A study of Danio rerio with 4 samples.

Results

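The cytosolic ribosomal protein genes encode the protein part of the ribosome that translates nuclear mRNA. They were taken by name, as every gene of the authors' deposited table called rps, rpl or rplp with a number, or rpsa, with the rps6k kinases left out. This gave 72 of the 2477 genes in the table, 31 of the small subunit and 41 of the large subunit. The cells were primordial germ cells, sorted by flow cytometry on a germline EGFP signal from zebrafish embryos (AB strain, 13 hours post fertilization). One group of embryos had received a dead end morpholino (here called dead end morphants) and the other a control morpholino (here called controls), with 2 libraries each, and the groups otherwise shared strain, stage and sort. Morpholinos are antisense oligonucleotides that keep a target RNA from being used, and Dead end binds RNA in the germ cells of vertebrates. A knockdown of this kind can leave some protein, and the labels do not say which use of the RNA the morpholino blocks or whether libraries came from separate clutches. The targeted gene, dnd1, was not analysed here, so its transcript gives no check of the labels.

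The ribosome has a small subunit, which binds mRNA and reads its codons, and a large subunit, which joins the amino acids and holds the exit tunnel for the new chain. Each subunit needs nearly all of its proteins in fixed proportion, and in vertebrates their mRNAs share a terminal oligopyrimidine start, the TOP motif, through which the growth kinase mTOR controls their translation. Early zebrafish embryos begin development with maternally stored ribosomes and ribosomal protein mRNAs, and primordial germ cells keep many maternal transcripts for longer than somatic cells do.

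All 72 ribosomal protein genes were higher in dead end morphants in the authors' deposited table, where each was called at the authors' q under 0.05. The level was given there in FPKM, fragments normalised by transcript length and by sequencing depth, as 1 value per group. The median level over the 72 genes was 896 FPKM in dead end morphants and 385 FPKM in controls. The median ratio was 2.36-fold, or 1.24 on the log2 scale. Every gene of the table had passed that q, and 65.0% of all 2477 genes were higher, so the table holds no ribosomal protein gene that could have failed the call. It also holds no change of under 0.829 on the absolute log2 scale. Because the table has 1 value per group, no spread between libraries could be computed and the depth is unknown.

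The sorted cells themselves differed between the groups. Of 14 germ cell marker genes, 8 were listed and all 8 were lower, with a summed level of 2275 FPKM in dead end morphants and 10308 FPKM in controls in the authors' deposited table. Of 48 somatic marker genes of muscle, neural tissue, epidermis, endoderm, blood, notochord and yolk layer, 32 were listed and all 32 were higher, with a summed level of 5147 FPKM in dead end morphants and 1065 FPKM in controls. Among them sox32, which specifies endoderm, was listed at 0 in controls and at only 3.22 FPKM in dead end morphants. Over the whole table, 65.0% of the genes were higher. Of 8 genes of dissociation stress, 2 were listed and higher, at a summed 3399.6 FPKM in dead end morphants and 830 FPKM in controls, nearly all of it from hspb1. The somatic and stress markers moved in the direction of the ribosomal protein genes, and the germ cell markers in the opposite one. The part of these markers in the result was not tested. In sorted bulk samples, a change in the share of cells of a type and a change in RNA per cell cannot be told apart.

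**Figure D1:**
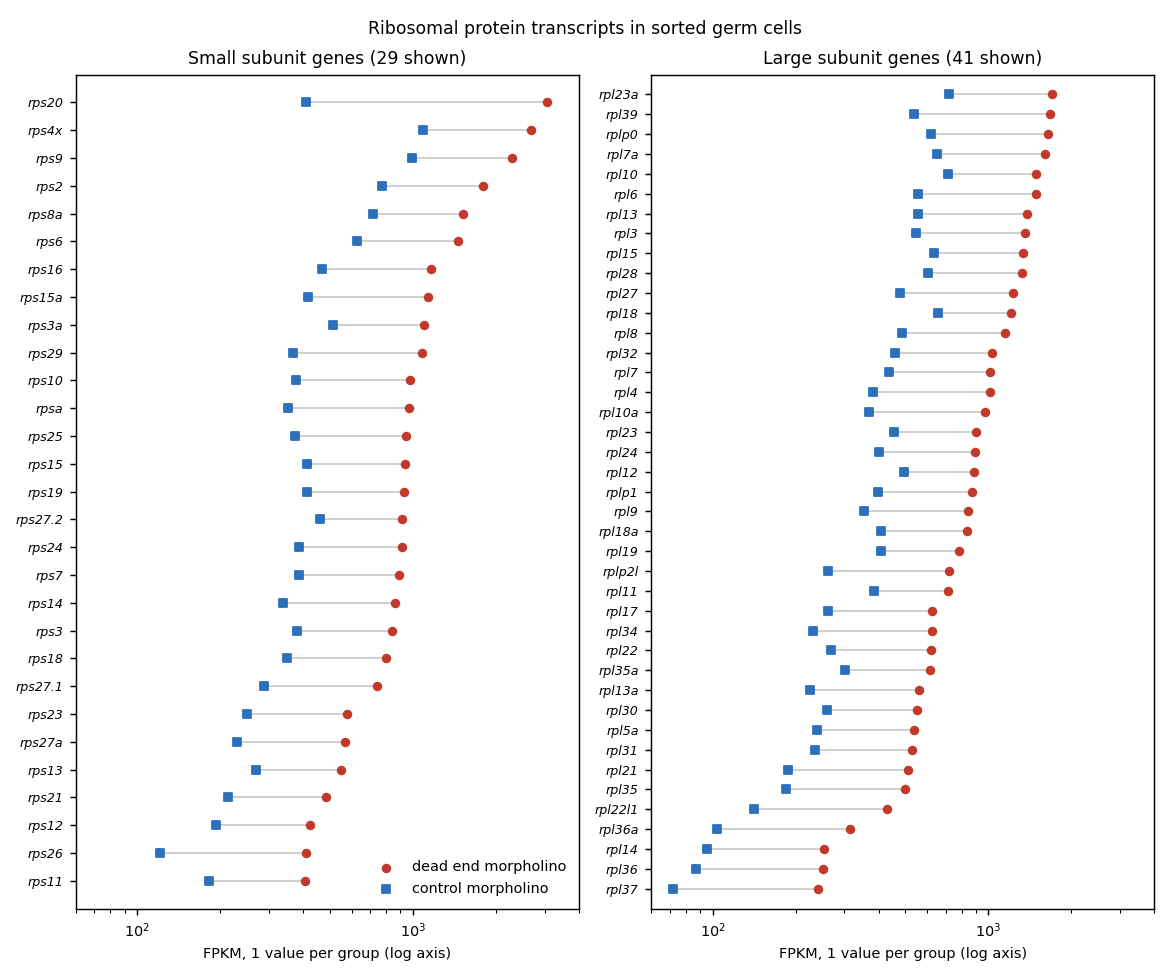
Level of 70 of the 72 ribosomal protein genes in FPKM on a log axis, small subunit on the left and large subunit on the right. Red circles are dead end morphants and blue squares controls, 1 value per group with no error available, and each red circle lies to the right of its blue square.

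Ribosomal protein transcripts were among the most abundant of the table in both groups. Of the 100 genes with the highest FPKM, 60 were ribosomal protein genes in dead end morphants, and 60 were in controls. Their summed level was 70333 FPKM in dead end morphants and 29038 FPKM in controls, a ratio of 2.42-fold. The summed level of all genes in the table differed by 2.02-fold in the same direction. Ribosomal protein genes thus held 29.7% of the listed FPKM in dead end morphants and 24.8% in controls. These are shares of the called genes in the table, not of the whole transcriptome.

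Levels differed widely between genes within each group, although FPKM is scaled to transcript length. With the dead end morpholino the highest was rps20 at 3054 FPKM, followed by rps4x at 2679.7 FPKM, rps9 at 2288 FPKM and rps2 at 1799.9 FPKM. With the control morpholino rps4x, at 1086 FPKM, and rps9, at 994 FPKM, led the set. Near the low end in dead end morphants were rpl37 at 241 FPKM, rpl36 at 252 FPKM and rpl14 at 253 FPKM. With the control morpholino the lowest was rpl37 at 72.0 FPKM, and the highest gene stood 15.1-fold above it. The 8 highest and the 8 lowest genes in dead end morphants held 4 small subunit genes each, so neither end belonged to 1 subunit.

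The order of the genes was largely shared by the groups. Across the 72 genes, log2 levels in the groups had a Pearson r of 0.945 and a Spearman rho of 0.935, and without rps20 the values over 71 genes were 0.975 and 0.948. These are descriptions across genes, which share the libraries and the annotation and are not independent replicates. When genes were ranked within the set from the highest level down, rps20 stood at place 1 in dead end morphants and at place 30 in controls. The next largest move was of 20 places, by rpl12, at place 39 in dead end morphants and at place 19 in controls.

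The small and large subunit genes differed little from each other in their change. Small subunit genes had a median level of 929.9 FPKM in dead end morphants and 379 FPKM in controls, and large subunit genes had 874 FPKM in dead end morphants and 397 FPKM in controls. The median log2 ratio was 1.22 for the small subunit (2.33-fold, 31 genes) and 1.25 for the large subunit (2.38-fold, 41 genes), a difference of -0.031. The interquartile range ran from 1.16 to 1.36 for small subunit genes and 1.14 to 1.41 for large subunit genes, so the range of the small subunit lay within that of the large subunit. Genes are not replicates, and no test between the subunits was run. The summed level of the small subunit was 0.891 times that of the large subunit in dead end morphants and 0.830 times in controls. Without rps20 it was 0.809 times in dead end morphants and 0.804 times in controls, so this 1 gene carried most of the shift between the sums.

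Most ribosomal protein genes fell in a narrow band of change, whose lower side is cut by the authors' call. By the ratios in the authors' deposited table, 60 of the 72 were between 2-fold and 3-fold higher, 6 were under 2-fold and 6 were 3-fold or more. At least 2-fold higher were 66 of 72 ribosomal protein genes, against 64.4% of the 2245 genes with both values above 0. Those 2245 include lower genes, while all 72 were higher. Of the 1533 higher genes among them, 1446 were at least 2-fold higher, so the 66 of 72 was no excess. At least 3-fold higher were 6 of 72, against 33.0% of the same 2245 genes, which is 741 of the 1533 higher ones. At the authors' q under 0.01, 54 of the 72 remained called. Higher and within that limit were 42.6% of all 2477 genes, which is 1055 of the 1609 higher genes. The interquartile range of the log2 ratio was 0.25 for the 72 genes and 0.80 for the 1533 higher genes with both values above 0, whose median was 1.57.

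Highly expressed genes of other kinds gave a nearer comparison for size. Within the range of control levels that the ribosomal protein genes span, the table held 216 genes of other kinds, of which 126 (58.3%) were higher and 90 lower. The 126 higher genes had a median ratio of 2.47-fold, near the 2.36-fold of the ribosomal protein genes, and a wider interquartile range of 0.58 on the log2 scale. None of them had a larger ratio than rps20, the largest was 6.52-fold, and 34 of the 126 were at least 3-fold higher. The median log2 ratio over the 2245 genes with both values above 0 was 1.26. Relative to that median, the ribosomal protein genes stood at -0.024, so they rose by about as much as the middle gene of those 2245. That middle also depends on the mix of higher and lower called genes.

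An error for each gene can be had only from the authors' test statistic. If that statistic is the log ratio divided by its standard error, which the sources used here do not state, the implied standard error of a log2 ratio was 0.350 to 0.781 over the 72 genes, with a median of 0.466. The log2 ratios of the 71 genes other than rps20 had a standard deviation of 0.196 between them, less than the implied error of any of them. The authors' call leaves out small changes. The lowest log2 ratio of the set, 0.847, lay close to 0.829, the smallest absolute value of any gene in the table. This cut can narrow the spread, so the spread does not show that the genes share 1 change. All 71 had an interval of 2 implied standard errors that held the median of the set, so under this assumption their order was not resolved. For 3 genes, rpsa, rpl18 and rpl12, this interval reached 0 even though the authors' deposited table called them. The intervals thus do not match the authors' calls for these genes, and the mismatch is not limited to them. The authors' p was 0.00015 for rpsa at a statistic of 1.86, but 0.00695 for rpl12 at 1.91. For rps7, at a statistic of 2.63, it was 5e-05. These p-values do not follow from the statistic alone. The assumption may therefore not hold for any gene, which limits every use of the implied errors in this report. Errors of different genes in the same libraries can move together.

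**Figure D2:**
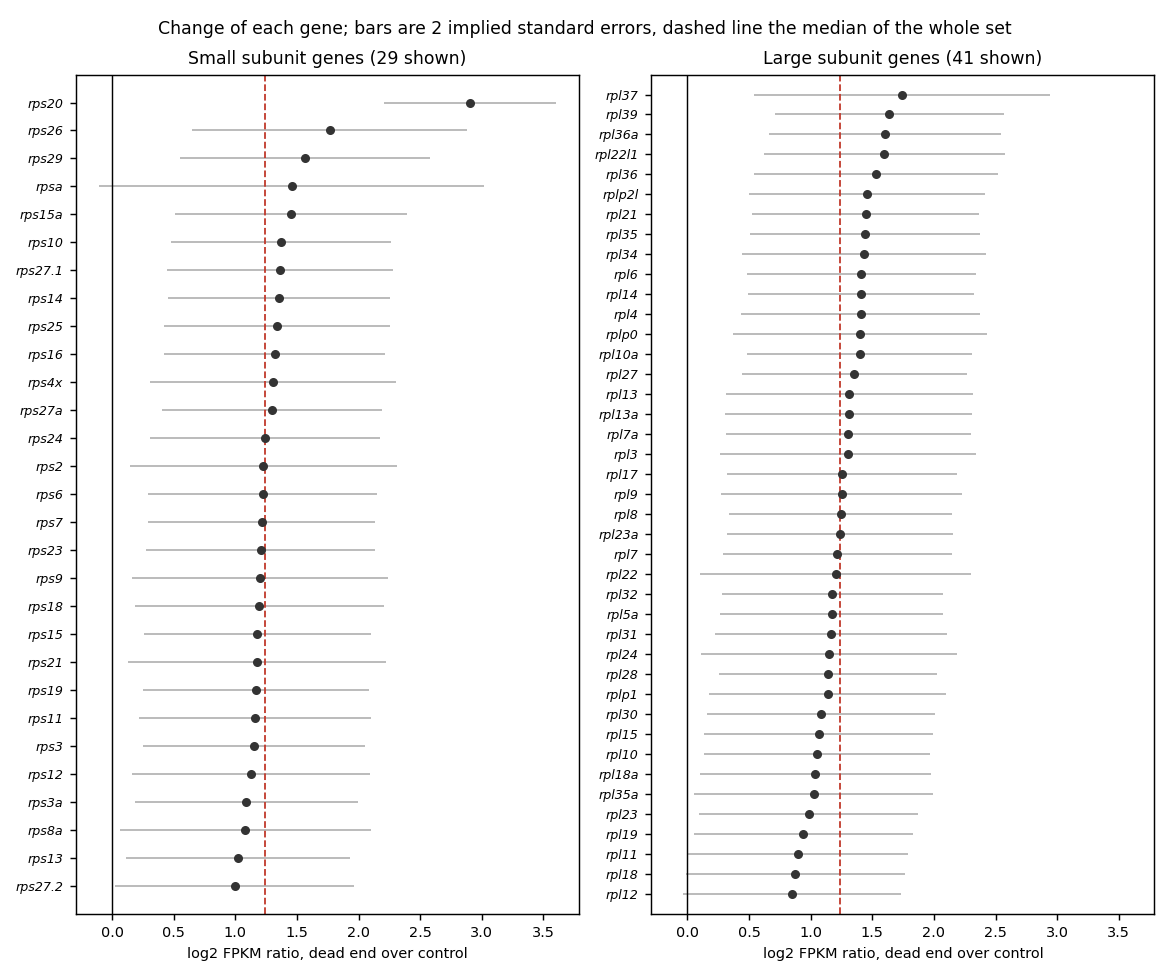
The log2 FPKM ratio of dead end over control for 70 of the 72 genes, with small subunit genes on the left and large subunit genes on the right. Bars are 2 implied standard errors under the stated assumption, the dashed line is the median of the 72 genes at 1.24, and rps20 is the 1 gene whose bar does not reach it.

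The gene rps20 encodes a protein of the head of the small subunit. Its locus lies on chromosome 7 from 58443546 to 58447960 (ENSDARG00000036044), and it overlapped no other gene of the table, which also held for every other ribosomal protein gene. The authors' deposited table gave rps20 at 3054 FPKM in dead end morphants and 408 FPKM in controls, a rise of 7.48-fold (log2 ratio 2.90, implied standard error 0.350, authors' q = 0.00107). Its control level was thus close to the median of the set, and its level in dead end morphants was the highest of the 72. The gap on the log2 scale to the next gene was 1.14, wider than the whole range of 0.92 that the other 71 genes spanned. Its test statistic of 8.31, which carries the sign of the ratio, was exceeded by 1 gene, and lower genes could not enter that count. The largest statistic among the other ribosomal protein genes was 3.52. For rps20, the interval of 2 implied standard errors lay above those of 35 ribosomal protein genes and met those of the other 36. Among the 1533 higher genes with both values above 0, 92.6% had a smaller ratio than rps20. The q of rps20 is the smallest that the table holds, and 24 of the 72 genes have it, so it does not rank them.

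The small subunit head, to which rps20 belongs, turns to let mRNA and transfer RNA move. Its group had 11 genes, all listed. All were higher, as was every ribosomal protein gene of the set, in a table where 65.0% of all genes were higher. This direction is thus no separate result for the head. The median ratio of the 11 genes was 2.29-fold. After rps20 came rps29, a small zinc-binding protein, at 1083 FPKM in dead end morphants and 367 FPKM in controls (2.95-fold). Then rps10 had 973 FPKM in dead end morphants and 376 FPKM in controls (2.59-fold in the authors' deposited table).

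Listed genes for proteins along the path of the mRNA were all higher, as was every gene of the set. At the entry of the mRNA channel, rps2 was 2.34-fold higher and rps3 was 2.22-fold higher in dead end morphants. At the exit, where 4 of the 6 named genes were listed, changes ran from 2.32-fold to 3.40-fold. The largest was rps26, which contacts mRNA upstream of the start codon in the exit channel, with 410.3 FPKM in dead end morphants and 121 FPKM in controls (log2 ratio 1.76, implied standard error 0.560, q = 0.00107 in the authors' deposited table). The laminin-receptor homologue rpsa had 966 FPKM in dead end morphants and 352 FPKM in controls (2.74-fold), and the largest implied standard error of the set, 0.781. Ribosomal protein S6, the classical substrate of the S6 kinases, is encoded by rps6, which had 1462 FPKM in dead end morphants and 627 FPKM in controls (2.33-fold).

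Of the large subunit, the stalk proteins recruit the elongation factors to the ribosome. The stalk core gene rplp0 had 1639 FPKM in dead end morphants and 621 FPKM in controls (2.64-fold). Its partners rplp2l and rplp1 were 2.75-fold and 2.20-fold higher. The protein of the stalk base, rpl12, had 887 FPKM in dead end morphants and 493 FPKM in controls, and its 1.80-fold was the smallest rise of the 72 (authors' q = 0.0474 in the authors' deposited table). The intervals of 2 implied standard errors of these 4 genes overlapped.

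The particle of 5S rRNA with the proteins Rpl5 and Rpl11 is also known, in mammals, to bind Mdm2 and so free p53 when ribosome assembly is disturbed. Here rpl5a had 536 FPKM in dead end morphants and 238 FPKM in controls (2.25-fold). For rpl11 the values were 716 FPKM in dead end morphants and 385 FPKM in controls (1.86-fold, authors' q = 0.0352 in the authors' deposited table). Of 16 genes of p53 and nucleolar stress, 3 were listed. The stress-induced sestrin gene sesn2 was lower, at 12.8 FPKM in dead end morphants and 46.9 FPKM in controls, and sesn1 was lower too, at 17.5 FPKM in dead end morphants and 46.2 FPKM in controls. The apoptosis gene baxa was higher, at 43.5 FPKM in dead end morphants and 12.3 FPKM in controls.

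All 7 listed genes for proteins that line the exit tunnel or ring its opening were higher, as was every gene of the set. Their changes ran from 1.92-fold for rpl19 to 3.11-fold for rpl39. The tunnel protein rpl39 had 1678 FPKM in dead end morphants and 539 FPKM in controls (q = 0.00107 in the authors' deposited table). For rpl23a, beside the opening, the values were 1696 FPKM in dead end morphants and 719.9 FPKM in controls (2.36-fold). Both stood among the 8 most abundant ribosomal protein transcripts in dead end morphants. The loci given for rpl17 (70.0 kb), rpl37 (40.6 kb), rpl4 (37.2 kb) and rpl15 (35.4 kb) were far longer than the median of 5.54 kb, and a long Cufflinks locus can join neighbouring gene models.

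The genes with the largest ratios after rps20 were mostly weakly expressed for this family. In order they were rps26, rpl37, rpl39, rpl36a, rpl22l1, rps29 and rpl36, from 3.40-fold to 2.89-fold. Of the 8 largest ratios, 6 belonged to genes under the median control level of the set, against 1 of the 8 smallest. The 11 genes under 200 FPKM in controls had a median log2 ratio of 1.45, the 48 genes from 200 to 600 FPKM had 1.23, and the 13 genes from 600 FPKM up had 1.20. Across the 72 genes, the Spearman rho of the ratio with the control level was -0.357, and with the mean log2 level of the groups it was -0.198. The control level is also the denominator of the ratio, so this is given as a description only.

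**Figure D3:**
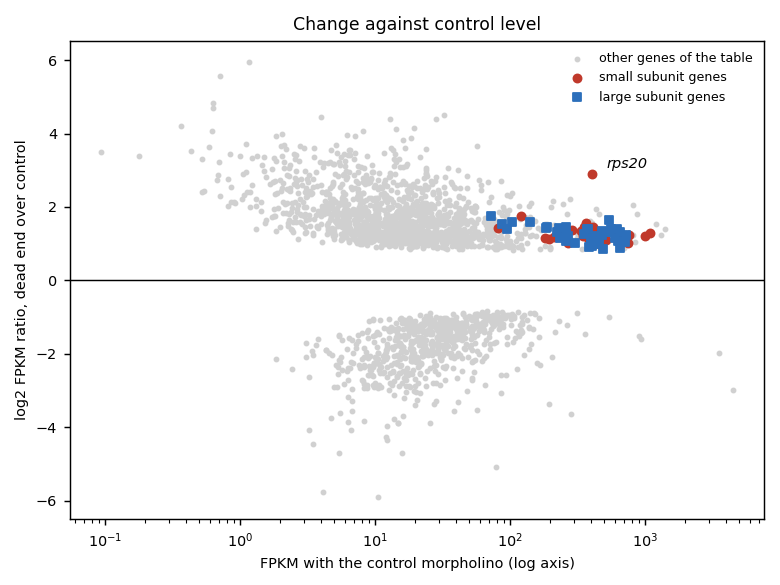
The log2 FPKM ratio of dead end over control against the control level in FPKM on a log axis, for ribosomal protein genes in colour and for the other genes of the table in grey. The small subunit (red circles) and large subunit (blue squares) form 1 band around 1.24 at the right, with rps20 alone above it at 2.90, and the empty stripe around 0 reflects that the table holds only called genes.

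Paralogous copies were listed together for 2 genes. The copy rps27.1 had 740.2 FPKM in dead end morphants and 288 FPKM in controls, and rps27.2 had 915 FPKM in dead end morphants and 459.6 FPKM in controls. Their ratios of 2.57-fold and 1.99-fold differed by less than their implied standard errors of 0.460 and 0.486 on the log2 scale. The gene rpl22l1 had 428 FPKM in dead end morphants and 141 FPKM in controls (3.03-fold), and its paralog rpl22 had 618 FPKM in dead end morphants and 269 FPKM in controls (2.30-fold). This difference was also within their implied errors of 0.490 and 0.548. Near-identical copies and processed pseudogenes can share reads, so the split between copies is uncertain.

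Another 5 ribosomal protein genes carried names that the rule does not take. Among them were faua, RPL37A, RPL41 and the unnamed ENSDARG00000077717, which the table of gene names calls RPL29. All 5 were higher in dead end morphants, from 2.20-fold to 2.96-fold, in a table where 65.0% of all genes were higher. Like the 72, they could not have failed the authors' call, since the table holds only called genes. RPL29 had 1767 FPKM in dead end morphants and 717 FPKM in controls, and RPL37A had 1202 FPKM in dead end morphants and 406 FPKM in controls in the authors' deposited table. The ubiquitin fusion gene rps27a is among the 72 and was 2.46-fold higher. Of a list of 85 core gene names, copies included, these 5 and the 72 were used, and 8 (rps8b, rps26l, rps28, rpl5b, rpl26, rpl27a, rpl38 and rplp2) were not analysed here.

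Ribosomal protein genes were spread over 23 chromosomes, with 7 each on chromosomes 3, 7 and 19. The closest pair was rpl3 and rpl27 on chromosome 3, with 22.6 kb between their loci. They had nearly the same ratio, 2.47-fold for rpl3 and 2.56-fold for rpl27. The nearest ribosomal protein gene to rps20 on chromosome 7 was rpl34, with 896 kb between the loci, and it was 2.70-fold higher, with 623 FPKM in dead end morphants and 231 FPKM in controls.

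Other genes of translation were listed mostly as higher, in a table where 65.0% of all genes were higher. Of 73 genes of ribosome biogenesis, which build the subunits in the nucleolus, 21 were listed, 19 higher and 2 lower, with a median log2 ratio of 1.22. The nucleolar genes npm1a (604 FPKM in dead end morphants and 214 FPKM in controls), nop56 (438 FPKM in dead end morphants and 162 FPKM in controls) and fbl (369 FPKM in dead end morphants and 131 FPKM in controls) rose in the authors' deposited table. The exceptions were sbds, which acts in large subunit maturation, at 17.1 FPKM in dead end morphants and 43.0 FPKM in controls, and the RNA polymerase I factor gene rrn3, at 16.6 FPKM in dead end morphants and 33.7 FPKM in controls. Other RNA polymerase I genes of the list were higher. For polr1d the values were 57.4 FPKM in dead end morphants and 5.62 FPKM in controls. For ubtf they were 82.2 FPKM in dead end morphants and 33.3 FPKM in controls. Of 15 listed genes with initiation factor names, 13 were higher, led in level by the helicase gene eif4a1a at 623 FPKM in dead end morphants and 280 FPKM in controls. The lower ones were eif2b3, at 9.98 FPKM in dead end morphants and 25.7 FPKM in controls, and eif4enif1, which encodes a transporter of eIF4E, at 32.8 FPKM in dead end morphants and 82.6 FPKM in controls.

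Among other mRNAs with a TOP start and ribosome partners, 7 of 29 were listed, with a median log2 ratio of 0.94. All 7 were higher, against 65.0% of all genes in the table. The TOP mRNA tpt1 had 3099 FPKM in dead end morphants and 1326 FPKM in controls, and the small subunit scaffold gene gnb2l1, known as Rack1, had 1300.0 FPKM in dead end morphants and 705 FPKM in controls. All 3 listed genes of elongation and termination were higher, with a median of 2.43-fold. The elongation factor gene eef1g had 368 FPKM in dead end morphants and 199 FPKM in controls (1.85-fold), and the termination factor gene gspt1l had 277 FPKM in dead end morphants and 114 FPKM in controls. The least abundant of them, eef2a.1, had 94.1 FPKM in dead end morphants and 17.6 FPKM in controls (5.35-fold).

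Mitochondrial ribosomal protein genes, which serve a separate ribosome, were listed in 3 cases with mixed directions. Lower were mrpl3, at 11.4 FPKM in dead end morphants and 32.4 FPKM in controls, and mrpl44, at 28.6 FPKM in dead end morphants and 65.0 FPKM in controls. Higher was mrpl57, at 86.9 FPKM in dead end morphants and 28.2 FPKM in controls. Of 8 listed genes of S6 kinases and growth signalling, 4 were higher and 4 lower. The S6 kinase gene rps6kb1b was higher, with 83.2 FPKM in dead end morphants and 34.7 FPKM in controls. Lower were rps6kc1, which encodes a protein related to the S6 kinases, at 5.64 FPKM in dead end morphants and 22.9 FPKM in controls, and the ribosomal S6 kinase gene rps6ka3b, at 0.944 FPKM in dead end morphants and 3.11 FPKM in controls. The gene of the mTOR-restraining protein Tsc1, tsc1a, was also lower, at 13.4 FPKM in dead end morphants and 35.5 FPKM in controls, while eif4ebp2, which encodes a repressor of eIF4E, was higher, at 57.9 FPKM in dead end morphants and 18.8 FPKM in controls. The Myc genes, whose products drive ribosome production in vertebrates, were higher as well, with mycn at 206 FPKM in dead end morphants and 42.2 FPKM in controls and mycb at 56.8 FPKM in dead end morphants and 8.44 FPKM in controls. The mTOR inhibitor gene deptor was listed at 0 in dead end morphants and at 2.68 FPKM in controls.

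**Figure D4:**
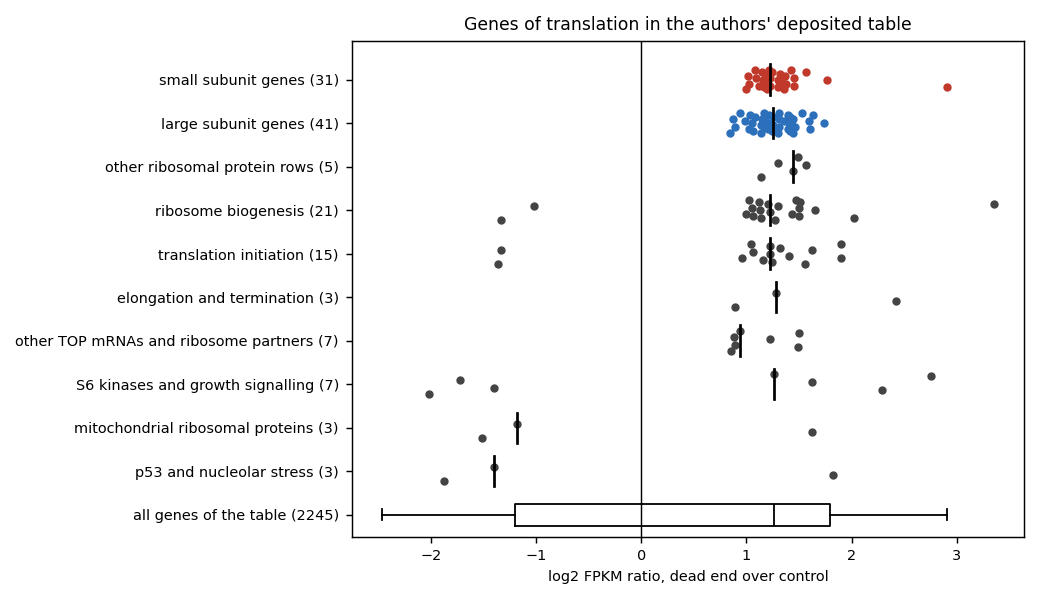
The log2 FPKM ratio of dead end over control for ribosomal protein genes and other gene lists of translation, with the number of genes beside each name, points for genes and black ticks for medians. The box at the bottom shows the quartiles of all 2245 genes with both values above 0, with whiskers at the 5th and 95th percentiles. Both subunits cluster near its median of 1.26, apart from rps20 at 2.90. The box includes lower genes, and the median of the 1533 higher genes alone was 1.57.

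The authors' own enrichment analysis named translation among the terms of their higher genes. In the authors' deposited table, the term translation held 85 genes of the higher list where 13.6 were expected (6.27-fold, Bonferroni-corrected p = 3.28e-36). Ribosomal small subunit biogenesis held 19 genes (7.27-fold, p = 1.65e-07) and ribosomal large subunit biogenesis 17 (6.85-fold, p = 4.01e-06) in the same deposited table of the authors. Of the 374 terms for higher genes, 12 named the ribosome, translation or rRNA, and 0 of the 21 terms for lower genes did. With so few terms for lower genes, that 0 shows no contrast between the directions, and related terms can share genes. The terms are given there without gene names, so how many of the 72 genes stand behind each is not known from that table, and they give no separate evidence on these genes.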

How the data were processed

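RNA of sorted germ cells was sequenced in 4 libraries, grouped by the labelled agent. Of tools, STAR 2.5.2b, cutadapt 1.10, Cuffdiff and Cufflinks 2.2.1 are named in the submitters' processing notes, beside the builds Zv9 and GRCz10 with no role for either. Positions are printed as the table gives them and were read as GRCz10, since one on chromosome 4 (74754136) is too large for Zv9. Per the file headers, the authors deposited FPKM as 1 value per group, the log2 of the FPKM ratio (dead end over control), a test statistic (a score), and a p-value and q-value. The deposited log2 ratio matched the FPKM values within 1.34e-05. Per the file headers, the authors' PANTHER tables give a fold enrichment (ratio) and a Bonferroni-corrected p-value for each term, with other columns giving gene numbers.

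No test of the groups was run here, since no value per library was used; calls are those of the authors (q under 0.05), kept where the larger of the FPKM values reached 1. Fold changes are plain FPKM ratios, dead end over control. Medians, ranges and ranks were computed with pandas 2.3.3. A check on simulated data covered the medians of the subunits only, not ranges or ranks, and did not model the authors' call. Alternatives were other FPKM floors, q under 0.01, pseudocounts of 1 and 10, centring on the median of genes with both values above 0, and other member sets. The members and lists were chosen with earlier results of these data known. Named genes were those with the 8 largest or smallest ratios or levels, copies, role groups and the most abundant of other lists. Genes named after their values were seen were rpl3, rpl27, rpl34, rps6, rps7, sbds, rrn3, polr1d, ubtf, the lower initiation genes, rps6kc1, rps6ka3b and tsc1a. Of 2477 gene IDs, 2408 matched the table of gene names, as did all 72 members. Some single genes entered every count and median but are not reported by name or plotted by name here. No sequence was used. If the libraries of a group did not come from separate pools of embryos, the authors' p-values measure technical spread only.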

Additional observations from a re-analysis of the deposited data

How the results depend on the processing

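Of 50 alternative values of the summary results, 16 could not change and show nothing about stability. With no FPKM floor, a floor of 10 FPKM or the core list alone the members were the same 72 genes, and centring cannot move a difference of medians. Of the other 34 values, 28 stayed within 0.05 on the log2 scale, or within 1.5 times for counts. These covered pseudocounts of 1 and 10 and the set without the 4 genes of the copied pairs. They also covered 3 alternatives chosen after seeing the data, without rps20, with the 5 ribosomal protein genes outside the name pattern, and without the 8 loci over 15 kb. The 28 included counts of higher genes: 54 at q under 0.01, 68 without copies, 77 with the 5 added and 64 without long loci. Each count equals the number of genes kept, as all were higher, so these counts also show nothing about stability. At the authors' q under 0.01 the median log2 ratio was 1.31 for all, 1.30 for small and 1.33 for large subunit genes, and each of the 18 genes lost there lay under the median of the 72. Centring used the median of the 2245 genes with both values above 0, which lay at 1.26. It follows that the medians turned to -0.024 for all, -0.041 for small and -0.010 for large subunit genes. The difference of the subunit medians stayed between -0.034 and -0.018 throughout. Leaving out replicates was not run, as the table holds no value per library. No paired analysis was possible because the table gives 1 value per group.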
